A study of Mus musculus with 6 samples.

Results

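Collagens, the proteins assembled with them in the extracellular matrix, and genes that mark hepatic stellate cells were followed in mouse liver under a soy-enriched diet. The set holds 37 genes, chosen by name, of 22907 genes that the array could name. Each gene was read on its brightest probe, the one with the highest mean normalized signal over all arrays. Male mice, 12 weeks old, ate either only granulated regular chow (control, 3 mice) or 75% regular chow mixed with 25% soy bean (soy, 3 mice) for 28 days. Pieces of the right hepatic lobe were taken, and total RNA of each liver was hybridized to 1 single-colour Agilent G3 Mouse Gene Expression v.2 array. Whole pieces of tissue mix stellate cells with all other cells of the liver, so that fewer cells of a type and less RNA per cell cannot be told apart.

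Stellate cells lie between the sinusoidal endothelium and the hepatocytes, store vitamin A, and make most of the collagen of the liver when they turn into contractile myofibroblasts. Collagen chains are folded in the endoplasmic reticulum, trimmed after secretion, assembled into fibrils and networks, and cross-linked by lysyl oxidases. Metalloproteinases cleave the matrix, TIMP proteins inhibit them, and TGF-beta, connective tissue growth factor and PDGF are the ligands best known for driving this programme.

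Signal was sufficient for most of the genes. A spot counts as well above background when the scanner software marked it so on that array. Of the 37 genes, 32 were well above background on all 6 arrays and 34 on every array of at least 1 group. The basement membrane zone collagen Col15a1 was so on no array, and Col5a2 and the lysyl oxidase Lox were so on 1 control array each, with no soy array. Control arrays 1 to 3 had 37010, 36366 and 38163 spots well above background, more than the 31308, 31988 and 32498 of soy arrays 1 to 3. Negative control spots had a mean background-subtracted intensity of 50.4, 44.9 and 43.6 in the control group against 69.7, 53.9 and 48.6 in the soy group. Of 9 genes that mark stellate cells, namely Reln, Hand2, Lhx2, Des, Pdgfrb, Dcn, Col1a1, Col3a1 and Acta2, all but Des were well above background on all 6 arrays. Des was well above background on the 3 control arrays and on no soy array. Per the file headers there were 3 slides: slide 1 carried the first 2 control arrays and soy 1, slide 3 carried control 3 with soy 3, and soy 2 was alone on slide 2.

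No gene of the set passed the test for a difference between soy and control livers. To pass, a probe needed a limma adjusted p under 0.05 and a soy to control ratio over 1.5 or below 0.66. By this rule 0 of the 37 genes passed in either direction, where 0.458% of all named genes passed. The smallest adjusted p in the set was 0.129, for Col27a1. At an unadjusted p under 0.05 there were 6 genes, 5 with lower and 1 with higher signal in soy, where 14.3% of all named genes reached that level (7.04% lower and 7.22% higher in soy), and 19.8% of those well above background. Of the 37 log2 changes 29 were negative and 8 positive, with a median of -0.19 and a range of -1.29 to 0.97, beside a median of -0.0056 over all named genes. Under a shift to the 75th percentile, which put the median of all named genes at 0.11, 25 changes were negative and 29 lay below that median. For the 34 genes well above background, 28 changes were negative and the median was -0.23, while 53.5% of all genes at that level of signal had a negative change. The groups did not overlap for 7 genes, where 20.5% of all named genes had no overlap, and 25.5% of those well above background. Soy was the lower group for 6 of them (10.8% of all named genes and 13.3% of those well above background) and the higher group for Col27a1 (9.68% and 12.2%). For a single gene, an exact permutation test of 3 against 3 livers cannot give a two-sided p under 0.10.

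**Figure D1:**
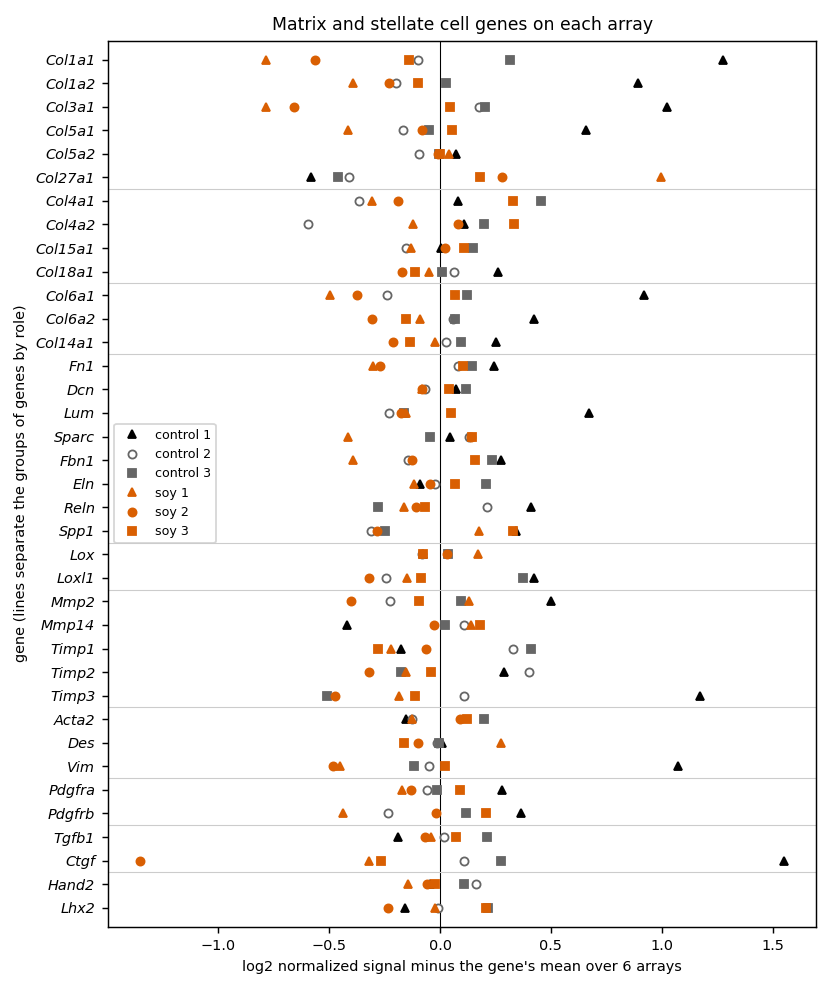
Log2 normalized signal of each of the 37 genes on each of the 6 arrays, minus the gene's mean over the 6 arrays, with 1 symbol per array and grey lines between groups of genes by role. Control 1 was the highest array for 21 of the genes, and soy 2 for none.

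The fibrillar collagens held the largest changes among the collagens of the set, in both directions. Col1a1 and Col1a2 encode the chains of type I collagen, and Col3a1 that of type III collagen, the main fibril formers of liver scar tissue. Col1a1 (NM_007742) had log2 normalized signals of 9.90, 8.53 and 8.94 on control arrays 1 to 3 and 7.84, 8.06 and 8.49 on soy arrays 1 to 3. All soy livers were below all control livers, by a small margin between control 2 and soy 3, and control 1 stood well above the other controls. The log2 change was -0.99 (SE 0.34, adjusted p = 0.317), a ratio of control to soy of 1.99. Each Col1a1 probe is printed in 10 spots, and the log2 SD among the spots of a probe on an array was 0.061 to 0.149, below the SD between control livers of 0.71. The other Col1a1 probe had a change of -0.86 (adjusted p = 0.394) with groups that overlapped.

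Col3a1 (NM_009930) had log2 signals of 11.82, 10.98 and 11.01 in control livers and 10.02, 10.14 and 10.84 in soy livers. The groups did not overlap, yet soy 3 came close to controls 2 and 3, while soy 1 and soy 2 lay together at the bottom. The change was -0.94 (SE 0.29, adjusted p = 0.271), a ratio of control to soy of 1.91. For Col1a2 (NM_007743) the log2 signals were 11.79, 10.70 and 10.92 in control livers and 10.51, 10.67 and 10.80 in soy livers. Here soy 3 lay above control 2, so the groups overlapped, and only control 1 stood apart. The Col1a2 change was -0.48 (SE 0.26, adjusted p = 0.549). Col5a1, a minor chain that starts type I fibrils, had a change of -0.30 (SE 0.23, adjusted p = 0.675), and Col5a2 one of 0.02 at a signal near background. With Col27a1, described next, the medians of the 6 fibrillar collagens were -0.70 on slide 1 and -0.06 on slide 3.

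**Figure D2:**
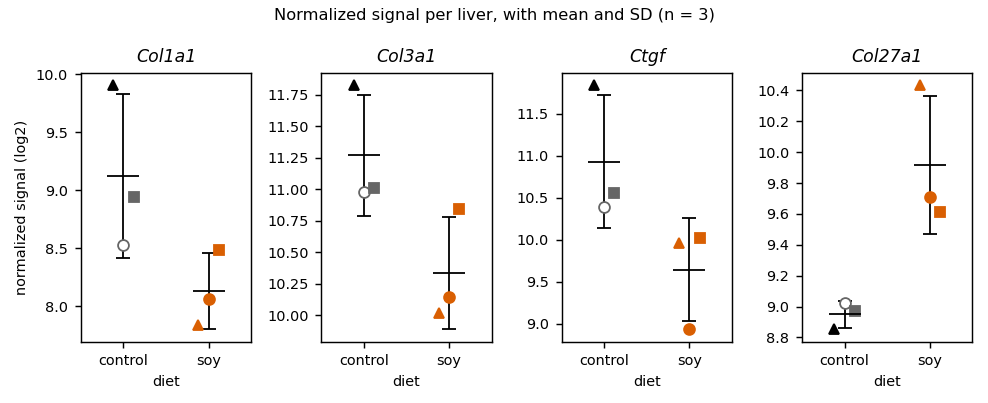
Log2 normalized signal of Col1a1, Col3a1, Ctgf and Col27a1 in each control liver (black and grey) and each soy liver (orange), with the mean and SD of 3 livers; triangles, circles and squares are replicates 1, 2 and 3, and each panel has its own axis. Groups did not overlap for any of these 4 genes, and control 1 was the highest array for Col1a1, Col3a1 and Ctgf.

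Col27a1 (NM_025685), a short fibrillar collagen best known from cartilage, went the other way. Its log2 signals were 8.85, 9.02 and 8.97 in control livers and 10.43, 9.71 and 9.61 in soy livers. The control livers lay within a narrow band, all soy livers lay above it, and soy 1 was the highest. The change was 0.97 (SE 0.21, 95% interval 0.48 to 1.46, adjusted p = 0.129), a ratio of soy to control of 1.96, on the only probe of the gene. It was 1.49 on slide 1, 0.64 on slide 3, 0.92 without control 1, and 0.71 without soy 1, its highest array. The locus of Col27a1 also holds the hairpin of the microRNA miR-455, whose mature forms have the following RefSeq sequences (GRCm38.p6), with the seed, bases 2 to 8, in capitals. They lie at chr4:63256867-63256888 and chr4:63256904-63256924, both on the + strand like Col27a1. They are shown because they lie inside the Col27a1 locus. The probe is assigned to the Col27a1 messenger RNA, and whether it reads the stretch that holds the hairpin was not tested. Mature microRNAs were not measured in the files used here.
mmu-miR-455-5p: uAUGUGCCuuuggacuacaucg
mmu-miR-455-3p: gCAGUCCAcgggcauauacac

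The upstream sequences of Col1a2, Col3a1 and Col27a1 are shown to set a pair of interstitial collagen genes with lower mean signal in soy beside Col27a1, the gene of the set with the largest positive change. RefSeq (GRCm38.p6) windows were found for 25 of the 37 genes, 29 windows in all. Each sequence below is the 250 bases before the annotated start on the + strand, with motif matches in capitals. They span chr6:4505368-4505617 for Col1a2, chr1:45311288-45311537 for Col3a1 and chr4:63215162-63215411 for Col27a1.
Col1a2: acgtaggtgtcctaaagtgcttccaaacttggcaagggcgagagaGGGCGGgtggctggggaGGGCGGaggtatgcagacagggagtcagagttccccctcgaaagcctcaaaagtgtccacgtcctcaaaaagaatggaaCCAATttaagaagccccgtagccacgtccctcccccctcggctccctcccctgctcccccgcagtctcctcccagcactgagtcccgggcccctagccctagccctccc
Col3a1: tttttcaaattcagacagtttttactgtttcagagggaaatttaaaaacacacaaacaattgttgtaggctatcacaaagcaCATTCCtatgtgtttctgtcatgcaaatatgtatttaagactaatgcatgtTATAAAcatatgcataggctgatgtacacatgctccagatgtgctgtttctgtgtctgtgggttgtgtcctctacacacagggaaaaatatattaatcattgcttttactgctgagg
Col27a1: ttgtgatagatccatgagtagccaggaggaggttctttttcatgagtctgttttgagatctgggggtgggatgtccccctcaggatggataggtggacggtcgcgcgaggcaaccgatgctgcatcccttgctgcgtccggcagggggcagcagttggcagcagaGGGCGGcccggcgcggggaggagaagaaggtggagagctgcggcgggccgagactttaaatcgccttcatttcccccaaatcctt

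Motifs chosen after the values were seen were searched on both strands. They were CCAAT, which the factor NF-Y reads, the GC box GGGCGG, the TATA box in the form TATAAA, the TEAD factor motif GGAATG, and the AP-1 motif TGANTCA. The Col1a2 window held CCAAT with its first base 109 bases before the start and GGGCGG at 205 and 188 bases. The Col3a1 window held TATAAA at 117 bases and GGAATG, as CATTCC, at 168 bases. In the Col27a1 window GGGCGG began 85 bases before the start. None of these matches overlapped another. Such letters are common, since of all 32851 windows of this length CCAAT was in 33.8%, GGGCGG in 32.7%, TATAAA in 12.4%, GGAATG in 12.6% and TGANTCA in 6.75%. Of the 29 windows of the set, 10 held CCAAT, 17 GGGCGG, 3 TATAAA, 5 GGAATG and 1 TGANTCA. A match is a run of letters, not a shown binding site.

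The basement membrane and multiplexin collagens lay close to zero. Col4a1 and Col4a2, which encode the chains of the sheet-forming type IV collagen, had log2 changes of -0.11 (95% interval -0.67 to 0.44) and 0.19 (-0.33 to 0.71). Col18a1, the source of endostatin and abundant in hepatocytes, had signals of 16.39, 16.20 and 16.14 in control livers and 16.09, 15.96 and 16.02 in soy livers. Soy livers were all below control livers, with control 3 and soy 1 nearly equal, for a change of -0.22 (SE 0.11, adjusted p = 0.482). Collagen VI, a beaded microfibril, and the fibril-associated Col14a1 had negative changes for all 3 genes, and none passed. Col6a2 had 8.04, 7.67 and 7.68 against 7.52, 7.31 and 7.46, without overlap, for a change of -0.37 (SE 0.13, adjusted p = 0.349). Col14a1 had 8.83, 8.60 and 8.67 against 8.56, 8.36 and 8.44, also without overlap, for a change of -0.25 (SE 0.11, adjusted p = 0.439). The margin between the groups was small for both genes. Col6a1 had a change of -0.54 (SE 0.29, adjusted p = 0.543), with overlap.

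Among the glycoproteins, proteoglycans and elastic fibre proteins, 7 of 8 changes were negative, yet none of the 8 genes separated the groups. Fibronectin (Fn1), which hepatocytes also secrete in quantity, had the largest, at -0.31 (SE 0.13, adjusted p = 0.431). Its other probes gave -0.31 and -0.12. The small proteoglycans that bind collagen fibrils had changes of -0.08 for Dcn (95% interval -0.32 to 0.15) and -0.19 for Lum. The matricellular protein Sparc had -0.09, the microfibril protein Fbn1 -0.24 and elastin (Eln) -0.06. For Sparc the dimmer probe had the opposite sign, at 0.11. Spp1 (osteopontin), which cholangiocytes make as well, had a change of 0.15.

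Enzymes that act on the matrix and their inhibitors did not pass either. The cross-linking lysyl oxidase Loxl1 had a change of -0.37 (SE 0.19, adjusted p = 0.505). The gelatinase Mmp2 had -0.25 and Mmp14, a membrane-bound protease that activates Mmp2, had 0.19. The changes of the inhibitors were -0.38 for Timp1 (SE 0.17, adjusted p = 0.447), -0.34 for Timp2 (SE 0.17, adjusted p = 0.485) and -0.51 for Timp3 (SE 0.38, adjusted p = 0.656). On these probes Timp1 was highest on control 3, Timp2 on control 2 and Timp3 on control 1, so the 3 inhibitors did not share their highest array. For 2 of them this array depended on the probe. The dimmer Timp2 probe (-0.31, adjusted p = 0.425, without overlap) was highest on control 1. The dimmer Timp3 probe (-0.32, adjusted p = 0.792, with overlap) was highest on control 2.

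Ctgf (now named Ccn2, NM_010217), the connective tissue growth factor that TGF-beta and YAP induce, had the largest change of the set. Its log2 signals were 11.84, 10.39 and 10.56 in control livers and 9.96, 8.93 and 10.02 in soy livers. All soy livers lay below all control livers, and control 1 and soy 2 stood out at the top and the bottom. The change was -1.29 (SE 0.43, 95% interval -2.29 to -0.29, adjusted p = 0.306), a ratio of control to soy of 2.45. It was -1.15 on slide 1 and -0.54 on slide 3. Tgfb1, the ligand upstream of it, had signals of 7.99, 8.20 and 8.40 in control livers and 8.14, 8.12 and 8.25 in soy livers, which overlapped fully. Its change was -0.03 (95% interval -0.32 to 0.27, adjusted p = 0.958), and it turned to 0.07 under a shift to the 75th percentile and to 0.01 under cyclic loess. The PDGF receptors Pdgfra and Pdgfrb, which drive growth of fibroblasts and stellate cells, had changes of -0.14 (SE 0.13) and -0.17 (SE 0.21), with adjusted p of 0.733 and 0.805.

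**Figure D3:**
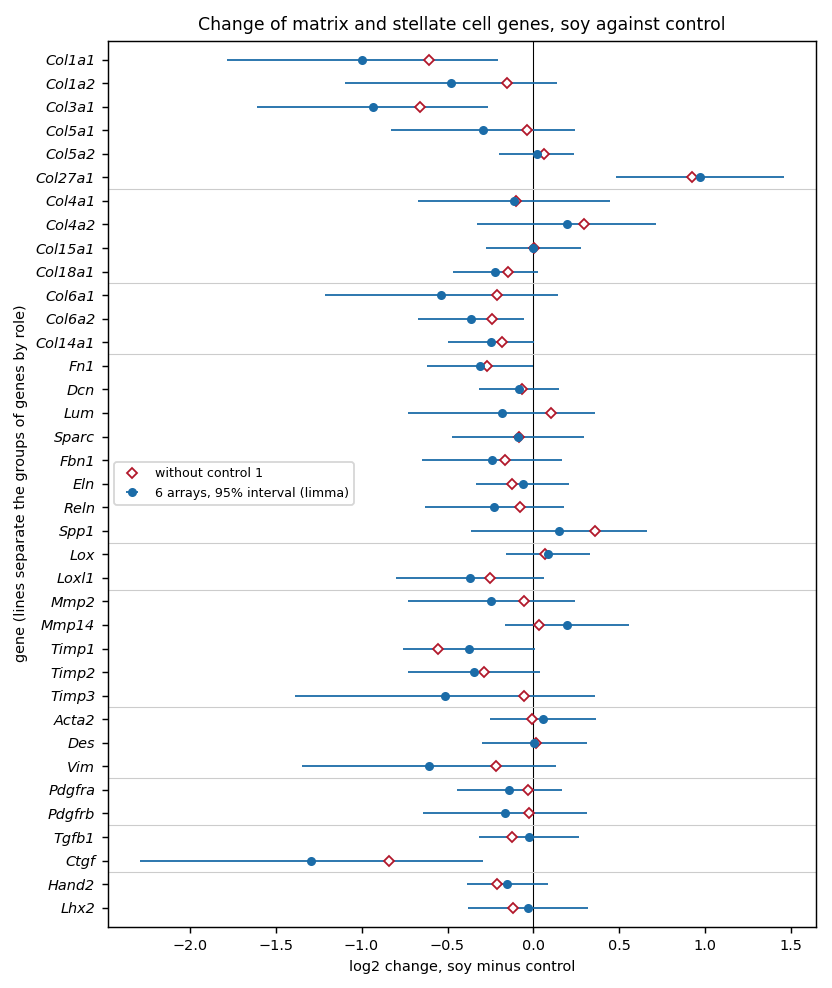
Log2 change from control to soy for each of the 37 genes (filled circles) with its 95% interval from limma, and the change computed without control 1 (open diamonds). Without control 1 the changes were -0.84 for Ctgf, -0.61 for Col1a1, -0.66 for Col3a1 and 0.92 for Col27a1. Control livers were nearly equal for Col27a1, whose change was 0.71 without soy 1 (not shown).

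Genes that mark the identity or the contractile state of stellate cells had small changes. Acta2 encodes the smooth muscle actin of myofibroblasts and of vessel walls. Its signals were 11.47, 11.49 and 11.82 in control livers and 11.49, 11.71 and 11.74 in soy livers. The groups overlapped over most of their range, with a change of 0.06 (95% interval -0.25 to 0.36, adjusted p = 0.908). The dimmer Acta2 probe above background had a change of -0.33 (adjusted p = 0.468), and the mean of all probes one of -0.10. Reelin (Reln), a secreted glycoprotein made by stellate cells, had 11.84, 11.64 and 11.15 against 11.27, 11.32 and 11.36. Soy livers were close together and lay inside the spread of the control livers, for a change of -0.23 (SE 0.17, adjusted p = 0.666). The stellate transcription factors Hand2 and Lhx2 had changes of -0.15 (95% interval -0.39 to 0.08) and -0.03 (-0.38 to 0.32).

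Desmin (Des), the muscle-type intermediate filament of stellate cells, had 7.08, 7.05 and 7.06 in control livers and 7.34, 6.97 and 6.90 in soy livers. The control livers were nearly equal and soy 1 was the highest, and no fold bound can be given because the change, at 0.01, was not lower in the group below background. The mesenchymal filament vimentin (Vim), also present in endothelial and immune cells, had a change of -0.61 (SE 0.32, adjusted p = 0.524), with control 1 at 12.28 and the other arrays between 10.72 and 11.23.

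Control 1 stood at the top for most of the genes. It was the highest of the 6 arrays for 21 of the 37 genes (56.8%), control 3 for 8, control 2 for 2, soy 1 and soy 3 for 3 each, and soy 2 for 0. Over all named genes with a value on every array, control 1 was the highest for 21.6%. Among genes well above background, the counts were 20 of 34 for the set and 3818 of 15103 for all genes. By role, it was the highest array for 5 of 6 fibrillar collagens, 3 of 3 genes of collagen VI and XIV, 5 of 8 glycoproteins and related proteins, both PDGF receptors, and neither of the transcription factors. The median deviation of the 37 genes from their own means was 0.26 on control 1, -0.06 on control 2 and 0.10 on control 3, and -0.15, -0.13 and 0.04 on soy 1 to 3. Soy 3 thus sat near control 2 and control 3.

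**Figure D4:**
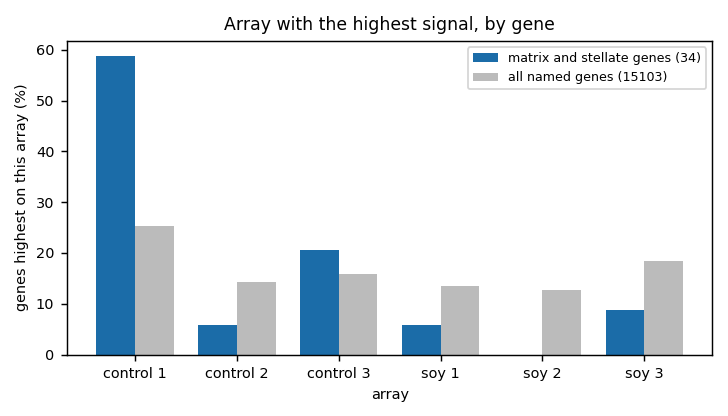
Share of genes (%) whose highest signal among the 6 arrays was on the array named on the x axis, for the 34 genes of the set well above background throughout a group (blue) and for all 15103 such genes with a value on every array (grey). Control 1 held 58.8% of the set against 25.3% of all genes.

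Without control 1 the median change of the 37 genes was -0.10 in place of -0.19, with 28 negative changes and 0 genes passed. The size of the change was smaller for 27 of the 37 genes, and the sign was the same for 34. The changes were -0.15 for Col1a2, -0.22 for Vim, -0.06 for Timp3, 0.10 for Lum, 0.92 for Col27a1 and -0.56 for Timp1. On slide 1, where control 1 lies, the median difference of soy 1 from the controls was -0.24, with 27 of 37 negative. On slide 3, which holds control 3 and soy 3, it was -0.08, with 23 of 37 negative. Of the 34 genes well above background, the difference was negative on both slides for 17 and positive on both for 4, beside 32.5% and 30.2% of all genes at that level of signal. Slide 2 holds soy 2 alone and gives no such value.

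The genes that process collagen and the rest of the matrix were read from 6 further lists with 91 genes. With limma, 0 of the 91 passed in either direction, while 18 had an unadjusted p under 0.05 (14.3% of all named genes), 14 of them with a negative change (7.04% of all named genes). The changes were negative for 58 and positive for 33, with a median of -0.08, where 51.2% of all named genes had a negative change. Among 12 genes for folding and processing of collagen, 7 were negative (median -0.10). Serpinh1, the collagen chaperone HSP47, had 10.78, 9.62 and 9.82 in control livers and 9.32, 9.53 and 9.32 in soy livers, which gave a log2 change of -0.68 without overlap (SE 0.28, adjusted p = 0.412). Pcolce, which enhances cleavage of the procollagen tail, had a change of -0.46 (SE 0.19, adjusted p = 0.424), also without overlap. Without control 1 these went to -0.33 and -0.24.

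Of 13 further collagens 10 were negative (median -0.08). The largest change in size among them was positive, that of the fibrillar collagen Col5a3, with 10.22, 8.40 and 10.86 in control livers and 10.66, 10.80 and 11.09 in soy livers. The groups overlapped and control 2 lay far below all other arrays, for a change of 1.02 (SE 0.55, adjusted p = 0.538). Of 27 other matrix proteins 21 were negative (median -0.19), with control 1 the highest array for 17 of the 27. Dermatopontin (Dpt), which binds decorin, had 8.17, 7.73 and 7.71 in control livers and 6.93, 7.45 and 7.12 in soy livers. Control livers were all above soy livers, for a change of -0.70 (SE 0.18, adjusted p = 0.180). Fibromodulin (Fmod), a fibril-binding proteoglycan, had a change of -0.43 (SE 0.12, adjusted p = 0.227), without overlap and on near-equal control arrays of 7.83, 7.76 and 7.80.

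The 17 proteases, inhibitors and cross-linkers were split, with 8 negative and 9 positive changes (median 0.05). The transglutaminase Tgm2, which cross-links matrix proteins and is widely expressed, had 0.45 (SE 0.18, adjusted p = 0.409). Of 18 genes of TGF-beta signalling 10 were negative (median -0.01). The latent TGF-beta binding protein relative Ltbp2 had -0.52 (SE 0.17, adjusted p = 0.296) and the co-receptor Tgfbr3 had -0.36 (SE 0.13, adjusted p = 0.334). Of the 4 PDGF ligands, Pdgfc had 8.60, 8.65 and 9.15 in control livers and 9.41, 9.24 and 9.93 in soy livers. Soy livers were all higher, with a change of 0.73 (SE 0.22, adjusted p = 0.254). The difference was nearly the same on slide 1 (0.78) and slide 3 (0.78).

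**Figure D5:**
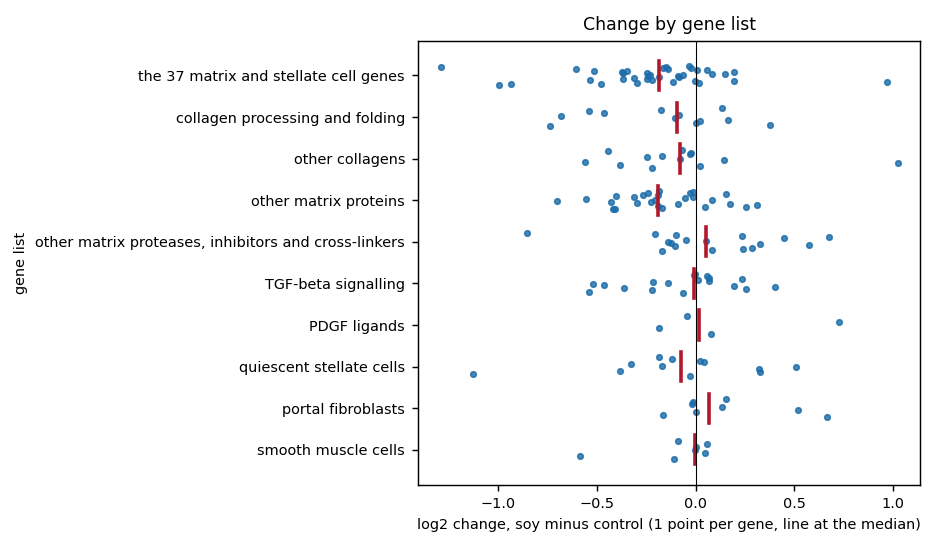
Log2 change from control to soy, 1 point per gene, for the 37 genes, the 6 lists of related genes and 3 lists of markers of cells that make matrix, with a red line at each median. The medians lie between -0.19 and 0.07.

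Markers of the cells that could supply these transcripts were set beside them. Of 12 markers of quiescent stellate cells, 7 were negative and 5 positive (median -0.07), none passed, and none was below background on all arrays. Their summed linear normalized signal was 55220, 52210 and 45450 in control livers and 40762, 39043 and 47869 in soy livers, led by Ecm1, so that soy 3 lay within the control range. The Hedgehog-binding protein Hhip had 0.51 (SE 0.17, adjusted p = 0.323), without overlap, and Lrat, which esterifies retinol in stellate cells, had -0.03 (95% interval -0.56 to 0.51).

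Of 8 markers of portal fibroblasts, 3 changes were negative and 5 positive (median 0.07), and none passed. Among them Thy1 had 8.52, 8.78 and 8.60 in control livers and 9.27, 9.27 and 9.36 in soy livers. The soy livers were close together above all control livers, with a change of 0.67 (SE 0.11, adjusted p = 0.059). Thy1 also marks T cells. Gas1 had 0.52 (SE 0.23, adjusted p = 0.445), without overlap. Entpd2, the brightest gene of the list, had -0.16 (adjusted p = 0.708), and Mfap5 was well above background on no array. The summed signal of this list was 2465, 2193 and 1976 in control livers and 2588, 2483 and 2536 in soy livers.

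The lists of smooth muscle (7 genes, brightest Tagln, with Lmod1 and Synpo2 above background on no array) and mesothelial cells (6 genes, brightest Msln, with Lrrn4 so) had medians of -0.0041 and -0.21, with 4 of 7 and 5 of 6 changes negative. The mesothelial sum was 1243, 880 and 1136 in control livers and 1070, 829 and 939 in soy livers, with control 1 highest. The mesothelial marker Gpm6a was well above background on the control arrays and on no soy array. Its change was -0.60, but -0.37 under a shift to the 75th percentile, -0.48 without control 1 and -1.51 with Agilent's processed signal. With quantile normalization and all arrays, its soy signal was lower by at least 1.40-fold (adjusted p = 0.198). This bound sets the control mean against the lowest signal of probes well above background on the soy arrays, or the probe's own signal where that is higher. It concerns means and does not include the spread between livers. For the cholangiocyte keratin Krt7 the bound was 1.096-fold (adjusted p = 0.639). The 95% interval of its change spanned zero (-0.37 to 0.09), and the change turned to 0.08 under a shift to the 75th percentile. Of the 7 cholangiocyte markers, 4 changes were negative and 3 positive (median -0.03). This list was led by Spp1, and its defining marker Epcam was above background on no array. Of the 5 adipocyte markers 4 had negative changes (median -0.08). They were led by Fabp4, with Adipoq and Plin1 above background on no array.

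Kupffer cell markers set control 1 apart in the other direction. The median deviation of these 8 genes on control 1 was -0.60, it was the highest array for 0 of the 8, and their summed signal, led by Cd5l, was 27267, 42971 and 53043 in control livers and 37416, 44899 and 56935 in soy livers. Of their changes 1 was negative and 7 were positive (median 0.11), and no gene of this list was below background on all arrays. Of 8 endothelial markers, 3 changes were negative and 5 positive (median 0.10), and none passed. Clec4g was the brightest and had a change of 0.20 (SE 0.11, adjusted p = 0.545), with soy livers all higher. The hyaluronan receptor Lyve1 had -0.66 (SE 0.48, adjusted p = 0.655), with control 1 at 11.15 and the other arrays between 8.88 and 9.48.

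Hepatocyte markers had a median as low as that of the matrix and stellate cell genes, at -0.20, with 5 of 6 changes negative and none passed. Control 1 was the highest array for 3 of the 6. Cps1, an enzyme of the urea cycle, had a change of -0.47 (SE 0.12, adjusted p = 0.176), without overlap. Tat, which breaks down tyrosine, had -0.76 (SE 0.26, adjusted p = 0.323), with overlap and control 1 highest. Alb was the brightest gene of the list, with a change of -0.14 (adjusted p = 0.690), and no gene of it was below background on all arrays. Their summed signal was 1178600, 1183300 and 1141330 in control livers and 1146890, 1038250 and 993402 in soy livers, with soy 1 inside the control range and soy 2 and soy 3 below it. The part of these cell types in the lower matrix signals, and of the markers that moved with control 1, was not tested.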

How the data were processed

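Per the file headers, the authors extracted the scans with Agilent Feature Extraction 11.5.1.1. They deposited spot and local background medians as raw intensity, not scaled between arrays. They also deposited a table of log2 values, normalized in a way the paper's text does not name. The difference from the log2 values computed here was 0.011 in the median and 0.26 at most. The raw medians were corrected by normexp with an offset of 50. Control spots were dropped, arrays were quantile normalized and log2 transformed, and outlier spots were left out before the spots of a probe were averaged.

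A total of 56605 probes were fitted with limma 3.58.1 (lmFit, eBayes) in R 4.3.3, soy against control, with Benjamini-Hochberg adjustment over all probes. Passed means an adjusted p under 0.05 and a soy to control ratio over 1.5 or below 0.66, as in the study. RefSeq accessions gave a symbol to 32989 probes (58.3%), and 51 probes stand for the 37 genes, of which 12 have more than 1. The genes, the lists, the markers and the rule for values per array were chosen with earlier results of these data known. By this rule, per-array values are given for genes without overlap and for core genes, and of each list the largest changes without overlap. A few genes chosen by it are not reported here. Lrat, Col5a3, Lyve1 and Tat were named after their values were seen. The labels call the mice of a group biological replicates, and 3 arrays per group limit the precision. The fit was tested on simulated data. Alternatives were other background corrections and normalizations, the processed signal, a filter on dim probes, kept outlier spots, eBayes with trend and robust settings, replicate number or slide as a block, the authors' log2 table, the mean of a gene's probes, a call by adjusted p alone, and leaving out each array in turn. Tables were made with Python 3.11.15 and pandas 2.3.3, and plots with matplotlib 3.10.9.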

Additional observations from a re-analysis of the deposited data

How the results depend on the processing

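Under every alternative run except 1, 0 of the 37 genes and 0 of the 91 related genes passed, and with single arrays left out both counts stayed at 0. The exception was Agilent's processed signal, shifted to each array's 75th percentile, where 1 of the 37 passed (Col27a1, 1.09, adjusted p = 0.0280) and 6 of the 91 (Col4a3, Fmod, Dpt, Mmp3, Itgb6 and Itgb8). Under it 20.1% of all named genes passed, and the cause was not tested. The median change of the set was negative throughout, between -0.25 and -0.10 with single arrays left out. A shift to the 75th percentile moved the median of all genes to 0.11, and the set lay at -0.11, with 29 of 37 below that median. The count without overlap was 7 (20.5% of all named genes). It was 5 with the processed signal (39.1% of all named genes), 8 under the 75th-percentile shift (26.5%) and 8 under cyclic loess (20.2%). With single arrays left out, when fewer values have to be separated, it was 9 to 14 (28.3% to 32.2% of all named genes). Among these were 13 without control 2 (28.3%) and 14 without soy 3 (29.1%). Signs of small changes turned for Tgfb1 (0.069 under the 75th-percentile shift, 0.010 under cyclic loess, 0.0012 without soy 2, and up to 0.074 with single arrays left out) and Krt7 (0.081 under the 75th-percentile shift). They also turned for Acta2 (-0.025 with slide as a block, -0.10 for the mean of probes, -0.0078 without control 1) and Des (-0.00018 without control 2, -0.13 without soy 1). The sign was kept for Tgfb1 at -0.13 without control 1 and for Acta2 at 0.17 without control 3. For Des it was kept at 0.090 without soy 3 and 0.19 under the 75th-percentile shift. Of 522 alternative values for the 29 genes that the naming rule gave, 501 kept their sign and side of the threshold. Thy1 passed under 4 alternatives, with the smallest adjusted p (0.0027) at the processed signal. Of all named genes 105 passed, but 13 with slide as a block, 41 at an offset of 16, 160 under the 75th-percentile shift, 163 with trend and robust settings, 275 when only probes well above background were tested, 4612 with the processed signal, and 15 to 113 with an array left out. Of the 37 genes, 6 had an unadjusted p under 0.05, 1 with slide as a block and 2 without soy 2.

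With the replicate number as a block, 0 of the 37 genes passed, 8 had an unadjusted p under 0.05, and 44 of all named genes passed in place of 105. The labels give no link between equal numbers, so the numbers were not taken as pairs. Deviations of equally numbered arrays correlated at 0.12, -0.06 and 0.11 over 27282 probes. Soy 1 correlated best with control 1 and soy 3 with control 3, each on a shared slide, but soy 2 with control 3 (0.10). These values cannot decide on pairs, since number and slide are mixed. The blocked fit changed no call in the set. Normexp on mean signals was not run, since the files used here have median signals only. Dim probes limit Col5a2, Col15a1, Lox and Des, whose signals lay at background on one or both diets.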
